A study of Mus musculus with 8 samples.

Results

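Bone marrow-derived macrophages without NRF2 were compared with wild-type macrophages at rest, before any drug was added. The comparison used 2 libraries of untreated Nrf2 knockout (KO) cells and 2 libraries of untreated wild-type cells, chosen by their labelled genotype and treatment from the 8 libraries of the series. The KO group carried the homozygous Nrf2-/- genotype, from mice bought from the Jackson Laboratory, and the wild-type group carried no named allele. Both groups were labelled C57BL/6, and all cells were grown from bone marrow for 7 days in medium with M-CSF, the growth factor that turns marrow progenitors into macrophages. The other 4 libraries, 2 of KO and 2 of wild-type cells, received 250 µM dimethyl itaconate (DI), an electrophilic itaconate derivative, for 12 h, and entered only as a second look at the same genotype difference. The sources used here do not give the age or sex of the mice, the origin of the wild-type mice or any vehicle given to untreated cells. The KO is present in every cell of the animal throughout its life, so the cells differed in genotype before and during their growth in culture. The labels leave unsaid whether replicate libraries stem from different mice or dishes. The p-values therefore rest on a spread between libraries that may be no more than technical.

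NRF2, encoded by Nfe2l2, is a transcription factor that KEAP1 holds in the cytosol and marks for degradation. Electrophiles and oxidants modify KEAP1, and NRF2 then accumulates, pairs with small MAF proteins and binds antioxidant response elements near genes for glutathione synthesis, thioredoxin recycling, quinone reduction, NADPH production and iron storage. In macrophages it is known as a brake on oxidative damage and on inflammatory gene expression, and a low level of it is thought to act in cells under no added stress.

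Poly(A) RNA was read near transcript 3′ ends with a primer that ends in a run of T, without molecular identifiers, and the deposited values are raw counts per gene. Total counts were 5554288 and 8788613 in the KO libraries, against 11217220 and 15680671 in the wild-type libraries, so both KO libraries were shallower than both wild-type libraries. Levels are given as CPM, the counts scaled to a common library total. On a log2 scale the CPM of replicate libraries correlated with r of 0.980 in KO and 0.978 in wild type, across genes. Mitochondrial transcripts took 1.42% and 1.49% of counts in KO libraries, against 1.30% and 1.37% in wild-type libraries. The Y-linked genes Ddx3y, Eif2s3y, Uty and Kdm5d had 0 to 2 counts in every untreated library. All 20 macrophage markers, among them Csf1r, Adgre1 and Lyz2, had counts in every untreated library of both genotypes. Between genotypes 0 of these markers were called by edgeR, with 3 higher and 0 lower at an unadjusted p under 0.05. DESeq2 called 2 of the markers, Adgre1 and Cd14, higher. Their summed level was 17440 and 16580 CPM in KO libraries, against 14960 and 14350 CPM in wild-type libraries.

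Few genes passed the test between KO and wild-type macrophages at rest, and most of those that passed were lower in KO. Of 11079 genes tested, 58 were lower in KO (0.524% of genes tested) and 9 were higher (0.0812%), together 67 (0.605%), at an adjusted p under 0.05 by the quasi-likelihood test of edgeR, adjusted after Benjamini and Hochberg over all of them. All adjusted p-values given here come from this test, and a gene that passed it is called. DESeq2 called 179 genes, and edgeR without the filter on low counts called 397. The lower genes included 10 NRF2 target genes and the iron exporter ferroportin, and 49 of the 67 called genes were in none of the gene lists used here. At an unadjusted p under 0.05, 809 genes (7.3%) were lower and 370 (3.34%) higher, and the median log2 fold change over all genes tested was -0.008. The smallest change called was 1.03 on the log2 scale, and the median standard error of a log2 fold change was 0.277. Because the filter on low counts needed a gene to be present in only 1 group, genes silent in KO could still be tested. In all 67 called genes the 2 KO libraries lay on one side of the 2 wild-type libraries. The calls rest on these same values, so the separation adds no support to them. Its share over all genes tested was not counted. Leaving out 1 untreated library at a time kept the call in all 4 fits for 9 genes, namely Gm16867, Npy, Ifi208, Slc40a1, Rnf128, Pla2g7, Tnfaip2, A530064D06Rik and Prm1. The number of these 67 calls that remained was 11 without KO replicate 1, 15 without KO replicate 2, 22 without wild-type replicate 1 and 35 without wild-type replicate 2, with no change of direction. For 27 of the 67 genes no such fit kept the call.

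**Figure D1:**
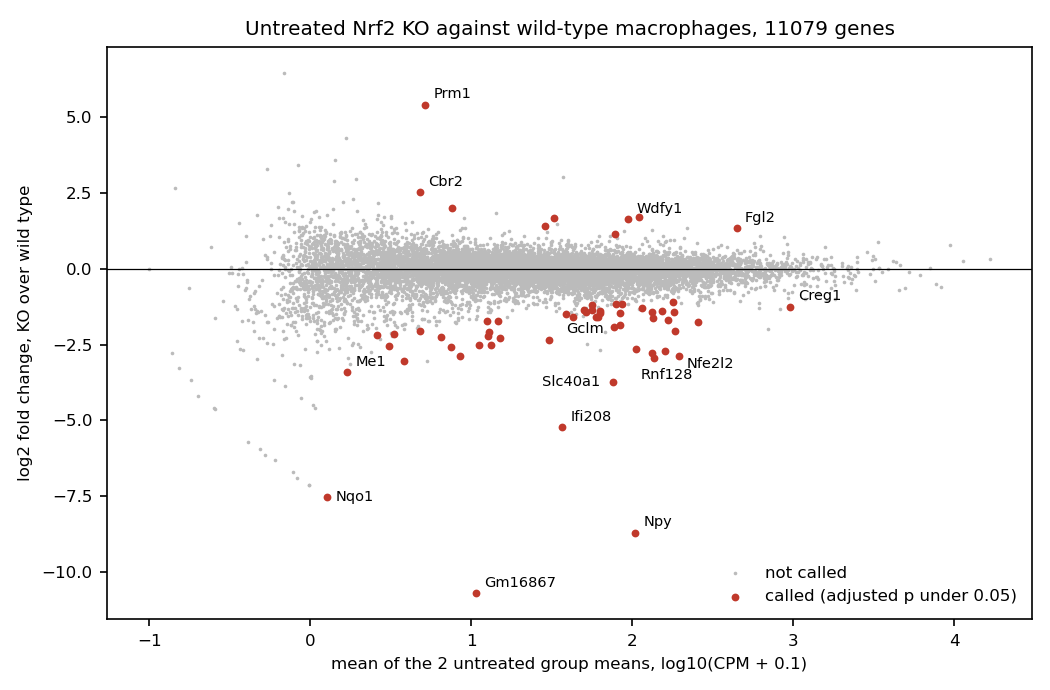
Log2 fold change of KO over wild type (vertical axis) against the mean of both untreated group means as log10(CPM + 0.1) (horizontal axis) for the 11079 genes tested, 1 point a gene, with the 67 called genes in red. Of the called genes 58 lie below 0 and 9 above it, and the fitted values of Gm16867 and Nqo1, which had no count in KO, are not bounds.

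The targeted gene itself was measured first. Nfe2l2 (chr2:75675513-75704641, minus strand, GRCm38) had 40.2 and 52.97 CPM in KO libraries, against 230.3 and 454.3 CPM in wild-type libraries. Its transcript was thus reduced but present in KO, and the groups did not overlap, although wild-type replicate 2 held nearly as much again as wild-type replicate 1. The log2 fold change was -2.87 ± 0.34 (SE, adjusted p = 0.0019), and the adjusted p was 0.0884 without KO replicate 1 and 0.0013 to 0.0315 without any other single untreated library. The labels do not state which exons the allele lacks, so whether the remaining reads lie within or outside the deleted part was not tested. Of 72 other tested genes within 10 Mb of Nfe2l2, 0 were called by edgeR, beside 0.605% of all genes tested. At an unadjusted p under 0.05 there were 9, beside 7.3% of all genes lower and 3.34% higher. DESeq2 called 2 of the 72, and 179 genes in all. The nearest other called gene on that chromosome, where 6 of 875 tested genes were called, is Grem1, 38.1 Mb away.

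NRF2 target genes held more called genes than any other of the 41 lists. The list holds 36 well-known targets, of which 35 passed the filter on low counts, and 10 were lower in KO and 0 higher, beside 0.524% and 0.0812% of all genes tested. The count of 10 lower targets was 0 without KO replicate 1, 2 without KO replicate 2, 3 without wild-type replicate 1 and 4 without wild-type replicate 2. It was 17 with DESeq2, 18 without the filter and 5 among genes with a mean of at least 5 CPM. At an unadjusted p under 0.05, 25 were lower and 0 higher, beside 7.3% and 3.34% of all genes. The log2 fold change was negative in 30 of 35, with a median of -0.996, or -0.979 with genes silent in KO placed at their bound, beside -0.008 over all genes tested. Some members passed the filter only through the libraries in which they are high, so these counts describe the list and are no test of it. Gsta4, a glutathione transferase, had no count in any of the 4 untreated libraries and has no fold.

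Glutathione is made from cystine in steps that several called genes serve. Gclm, the modifier subunit of the rate-limiting ligase of glutathione synthesis, had 33.4 and 39.9 CPM in KO libraries, against 129.7 and 134.1 CPM in wild-type libraries (log2 fold change -1.84 ± 0.22, adjusted p = 0.0019). The catalytic subunit Gclc had 26.9 and 28.8 CPM in KO libraries, against 73.2 and 76.2 CPM in wild-type libraries (-1.42 ± 0.25, adjusted p = 0.0218). Both subunits fell, and in each the replicates lay close together compared with the distance between genotypes. Slc7a11, the cystine importer, was a low transcript with 2 and 12 counts in KO libraries, against 54 and 57 counts in wild-type libraries (-2.18 ± 0.41 on the log2 scale, adjusted p = 0.0372). Gsr, which reduces oxidised glutathione with NADPH, had 23.3 and 32.9 CPM in KO libraries, against 80.3 and 63.5 CPM in wild-type libraries (-1.35 ± 0.27, adjusted p = 0.0482). These 4 were the called members among 10 genes listed for glutathione synthesis and cystine uptake. The other 6 were not called, and the list's median log2 fold change was -0.324. Gclm lost its call only without KO replicate 1 (adjusted p = 0.0904), while Gclc, Slc7a11 and Gsr were not called in any of the 4 fits without 1 untreated library, with adjusted p-values of 0.0665 to 0.45.

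Thioredoxin reductase and sulfiredoxin were the called genes of peroxide removal. Txnrd1, which keeps thioredoxin reduced, had 27.3 and 30.6 CPM in KO libraries, against 105.8 and 257 CPM in wild-type libraries (log2 fold change -2.65 ± 0.35, adjusted p = 0.00384). Wild-type replicate 2 was the highest by far, yet wild-type replicate 1 still lay above both KO libraries. Srxn1, which repairs over-oxidised peroxiredoxins, had 20.3 CPM in each KO library, against 52.3 and 47.9 CPM in wild-type libraries (-1.30 ± 0.26, adjusted p = 0.05, just under the threshold before rounding). The abundant peroxiredoxin Prdx1 had 1175 and 1249 CPM in KO libraries, against 2768 and 2068 CPM in wild-type libraries, and did not pass (-0.996 ± 0.227, adjusted p = 0.0778). Catalase (Cat) at -0.84 ± 0.25, thioredoxin (Txn1) at -0.52 ± 0.23 and Prdx6 at -0.25 ± 0.22 on the log2 scale also missed the threshold, with adjusted p-values of 0.188, 0.435 and 0.769. Of the 16 tested genes of peroxide removal, 2 were lower, 0 higher, and the median log2 fold change was -0.104. Txnrd1 was not called without KO replicate 1 (0.11) or without KO replicate 2 (0.075), and Srxn1 was called in none of the 4 fits (0.134 to 0.375).

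Among detoxification enzymes the classic target was silent in KO. Nqo1, the quinone reductase long used as the marker of NRF2 activity, had 0 and 0 counts in KO libraries, against 28 and 35 counts in wild-type libraries. It was at least 11.7-fold lower in KO, taking 3 counts over the KO group as the limit that a count of 0 allows (adjusted p = 0.0117). Gstm1, a glutathione transferase, had 2.45 and 3.91 CPM in KO libraries, against 21.4 and 16.4 CPM in wild-type libraries (log2 fold change -2.53 ± 0.33, adjusted p = 0.00331). Esd, an esterase that also hydrolyses S-formylglutathione, had 78.7 and 89.5 CPM in KO libraries, against 219.2 and 223.5 CPM in wild-type libraries (-1.39 ± 0.22, adjusted p = 0.0133). These 3 were the called members of 26 tested detoxification genes, a list whose median log2 fold change was 0.003. The carbonyl reductase Cbr2 is not in that list and was called higher in KO (2.54 ± 0.48, adjusted p = 0.0346). Members that were not called included Akr1b8, an aldo-keto reductase, at -1.09 ± 0.25, the microsomal transferase Mgst1 at -1.44 ± 0.36, the carbonyl reductase Cbr3 at -0.70 ± 0.35, Ptgr1 at -0.16 ± 0.26, Cbr1 at 0.39 ± 0.36, Mgst2 at 0.42 ± 0.65 and the epoxide hydrolase Ephx1 at 0.63 ± 0.37, with adjusted p-values of 0.0778 to 0.893. Aox1 and Gsta3 had no count in KO libraries and few in wild type, which makes Aox1 at least 3.33-fold and Gsta3 at least 1.48-fold lower, neither of them called (adjusted p = 0.158 and 0.398). Nqo1 kept its call only without wild-type replicate 2 (0.0403, against up to 0.127 otherwise), Gstm1 lost it only without KO replicate 1 (0.0884), and Esd lost it in all 4 fits (0.0622 to 0.283).

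NADPH supplies the reducing power for these enzymes. Me1, the cytosolic malic enzyme that makes NADPH, had 1 and 3 counts in KO libraries, against 38 and 40 counts in wild-type libraries (log2 fold change -3.40 ± 0.60, adjusted p = 0.0218), and was called in none of the 4 fits without 1 untreated library (0.0565 to 0.23). It was the one called gene of 12 in NADPH production and the pentose phosphate pathway, whose median log2 fold change was -0.358. G6pdx, which catalyses the first step of that pathway, had 28.7 and 35.6 CPM in KO libraries, against 58.6 and 68.4 CPM in wild-type libraries, and missed the threshold (-0.98 ± 0.23, adjusted p = 0.0853). Pgd at -0.74 ± 0.22, Taldo1 at -0.45 ± 0.23 and Tkt at -0.14 ± 0.44, the later enzymes of the pathway, also missed it, with adjusted p-values of 0.181, 0.533 and 0.955.

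Iron handling gave 1 of the largest changes. Slc40a1 encodes ferroportin, the only known iron exporter of mammalian cells, and macrophages use it to return iron from old red cells. Slc40a1 (chr1:45908068-45926523, minus strand) had 7.70 and 13.2 CPM in KO libraries, against 109.5 and 171.8 CPM in wild-type libraries. Each wild-type library held several times the level of either KO library, and the log2 fold change was -3.72 ± 0.34 (adjusted p = 2.31e-04), a 13.4-fold difference that was called in all 4 fits without 1 untreated library (adjusted p at most 0.00889). Heme oxygenase Hmox1, which opens the heme ring and frees its iron, had 15.4 and 16.4 CPM in KO libraries, against 41.1 and 29.8 CPM in wild-type libraries, and was not called (-1.15 ± 0.25, adjusted p = 0.0697). The ferritin chains, which store iron, were not called either, with Fth1 at -0.49 ± 0.22 and Ftl1 at -0.48 ± 0.22 on the log2 scale (adjusted p = 0.46 and 0.456). The biliverdin reductase Blvrb lay at -0.79 ± 0.23 (adjusted p = 0.176). Of 15 genes listed for heme breakdown and iron handling, 1 was called lower (0.524% of all genes), 7 were lower at an unadjusted p under 0.05 (7.3% of all genes), 12 had a negative log2 fold change, and the median was -0.494. Further targets that were not called were the multidrug exporter Abcc1 (-1.50 ± 0.34, adjusted p = 0.0749), Osgin1 (-1.44 ± 0.32, adjusted p = 0.0715) and the autophagy receptor Sqstm1 (0.16 ± 0.24, adjusted p = 0.881).

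**Figure D2:**
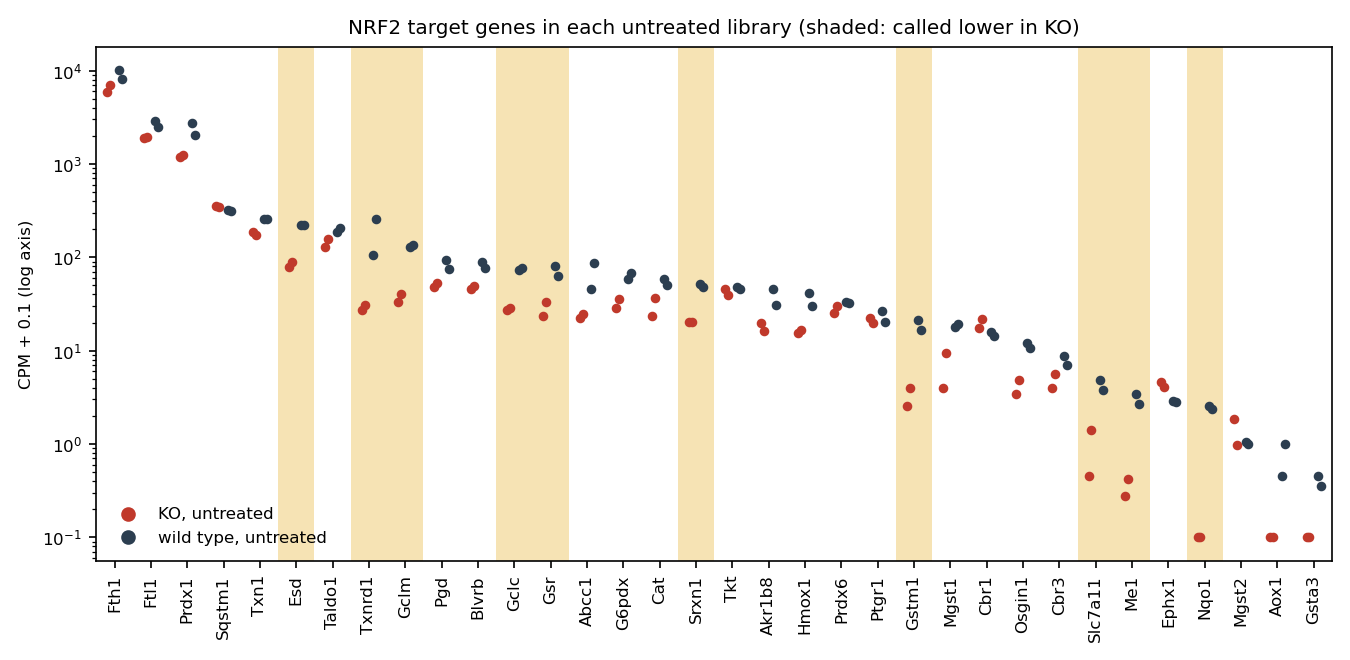
Level of each NRF2 target gene with a count in any untreated library, as CPM + 0.1 on a log axis, 1 point a library, with KO left of wild type and genes ordered by wild-type level. The 10 shaded genes were called lower in KO, the points at the bottom are libraries without a count, and Nqo1 shows 2 such KO libraries beside 2.45 and 2.26 CPM in wild type.

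Promoters of genes that fell are shown with the letters of the antioxidant response element core, since this is the DNA that NRF2 is known to bind. The motif searched was TGACNNNGC on either strand (GCNNNGTCA when read on the other), in RefSeq windows (GRCm38.p6) that run from 250 bases before to 50 bases after each transcript start, 300 bases in all. A match can overlap the AP-1 motif TGACTCA. Among NRF2 target genes, 9 of 30 with a window (30%) held the motif. Among genes called lower it was 10 of 49 (20.4%), among genes called higher 1 of 7 (14.3%), 17% of all genes tested, and 14% of all genes with a window. The 4 windows of called targets come first, followed by those of Pla2g7 and Tnfaip2, described next. Capitals mark the motif, which overlaps AP-1 in Me1. Distances are from the transcript start to the first base of the match on the printed strand: 134 bases before it in Gclm, 92 before it in Txnrd1, 28 after it in Srxn1, 6 before it in Me1, 2 before it in Pla2g7 and 161 before it in Tnfaip2. A match describes these letters only, and windows without one may lie away from the elements a gene uses. The windows are Gclm at chr3:122245307-122245606 (plus strand), Txnrd1 at chr10:82858956-82859255 (plus strand), Srxn1 at chr2:152105274-152105573 (plus strand), Me1 at chr9:86695865-86696164 (minus strand), Pla2g7 at chr17:43568201-43568500 (plus strand) and Tnfaip2 at chr12:111442411-111442710 (plus strand), each read 5′ to 3′ in the direction of the gene.
Gclm: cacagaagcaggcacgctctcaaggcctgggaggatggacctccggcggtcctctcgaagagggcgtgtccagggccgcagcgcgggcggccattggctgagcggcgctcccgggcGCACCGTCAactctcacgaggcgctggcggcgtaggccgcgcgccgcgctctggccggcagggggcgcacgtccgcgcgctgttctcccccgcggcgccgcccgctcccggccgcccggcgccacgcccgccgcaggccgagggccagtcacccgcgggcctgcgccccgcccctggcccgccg
Txnrd1: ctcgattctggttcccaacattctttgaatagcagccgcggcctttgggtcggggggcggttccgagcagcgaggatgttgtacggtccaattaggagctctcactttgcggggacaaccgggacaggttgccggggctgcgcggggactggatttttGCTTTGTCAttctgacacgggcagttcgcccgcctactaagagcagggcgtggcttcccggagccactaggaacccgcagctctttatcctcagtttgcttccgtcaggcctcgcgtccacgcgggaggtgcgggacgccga
Srxn1: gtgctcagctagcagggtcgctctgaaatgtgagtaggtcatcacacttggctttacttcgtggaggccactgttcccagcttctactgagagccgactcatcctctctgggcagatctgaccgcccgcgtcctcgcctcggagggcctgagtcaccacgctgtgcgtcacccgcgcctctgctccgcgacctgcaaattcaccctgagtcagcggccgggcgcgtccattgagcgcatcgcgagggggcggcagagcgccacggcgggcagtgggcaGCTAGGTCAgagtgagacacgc
Me1: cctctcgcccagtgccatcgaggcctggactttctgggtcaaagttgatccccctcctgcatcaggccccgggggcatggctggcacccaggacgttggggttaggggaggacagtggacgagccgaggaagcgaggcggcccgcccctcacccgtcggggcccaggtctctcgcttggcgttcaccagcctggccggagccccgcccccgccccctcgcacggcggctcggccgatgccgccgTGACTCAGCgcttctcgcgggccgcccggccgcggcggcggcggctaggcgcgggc
Pla2g7: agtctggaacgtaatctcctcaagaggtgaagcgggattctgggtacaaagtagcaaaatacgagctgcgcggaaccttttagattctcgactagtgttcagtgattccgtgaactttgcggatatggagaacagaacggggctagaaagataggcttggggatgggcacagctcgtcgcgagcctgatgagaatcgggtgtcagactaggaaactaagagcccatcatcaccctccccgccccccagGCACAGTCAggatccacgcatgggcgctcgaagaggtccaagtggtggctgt
Tnfaip2: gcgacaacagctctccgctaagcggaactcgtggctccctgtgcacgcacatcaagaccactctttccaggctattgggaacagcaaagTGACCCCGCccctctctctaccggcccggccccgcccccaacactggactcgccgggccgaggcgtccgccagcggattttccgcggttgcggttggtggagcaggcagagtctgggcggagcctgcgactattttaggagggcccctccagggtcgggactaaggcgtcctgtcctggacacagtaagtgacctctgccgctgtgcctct

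Several other lower genes encode surface receptors, secreted enzymes and signalling proteins of macrophages, none of which belongs to the target list. Those in this paragraph were chosen as the largest decreases among called genes whose libraries did not overlap. The separation of their groups was thus fixed by the choice. Pla2g7, the secreted platelet-activating factor acetylhydrolase, had 32.5 and 35.1 CPM in KO libraries, against 258.7 and 205 CPM in wild-type libraries (log2 fold change -2.78 ± 0.23, adjusted p = 2.31e-04). Tnfaip2, a TNF-induced protein that helps form thin membrane tubes between cells, had 37.8 and 46.8 CPM in KO libraries, against 308.3 and 245.9 CPM in wild-type libraries (-2.71 ± 0.24, adjusted p = 2.31e-04). Rnf128, an E3 ubiquitin ligase also called GRAIL, had 33.8 and 29.0 CPM in KO libraries, against 233.3 and 246.4 CPM in wild-type libraries (-2.94 ± 0.29, adjusted p = 3.64e-04). These 3 fell by more than 6-fold, the groups lay far apart beside the spread of their replicates, and each kept its call in all 4 fits without 1 untreated library. Plpp3, a phosphatase of lipid mediators such as lysophosphatidic acid, had 5.42 and 2.71 CPM in KO libraries, against 22.9 and 21.7 CPM in wild-type libraries (-2.51 ± 0.32, adjusted p = 0.00326). Pde1c, which breaks down cyclic nucleotides, had 2 and 30 counts in KO libraries, against 175 and 226 counts in wild-type libraries (-2.88 ± 0.49, adjusted p = 0.0187). The 2 KO libraries of Pde1c differed from each other by more than those of the other genes, and it was called only without KO replicate 2 (0.00246, against 0.072 to 0.0884 otherwise). Plpp3 lost its call only without KO replicate 2 (0.0685).

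A pair of C-type lectin receptors that sense fungi or mycobacteria were lower. The first, Clec4d, had 69.1 and 75.2 CPM in KO libraries, against 303 and 291.2 CPM in wild-type libraries (log2 fold change -2.04 ± 0.24, adjusted p = 0.00195). The second, Clec7a or dectin-1, the receptor for fungal beta-glucan, had 104.1 and 123.6 CPM in KO libraries, against 239.2 and 248.2 CPM in wild-type libraries (-1.10 ± 0.21, adjusted p = 0.0418). The matrix proteases Mmp8 and Mmp12 also fell. Mmp8, neutrophil collagenase, had 31.3 and 32.8 CPM in KO libraries, against 103.4 and 139.9 CPM in wild-type libraries (-1.92 ± 0.25, adjusted p = 0.00331). Mmp12, macrophage elastase, had 111.3 and 123.3 CPM in KO libraries, against 403.1 and 385.7 CPM in wild-type libraries (-1.75 ± 0.23, adjusted p = 0.0034). They lie 188957 bases apart on chromosome 9 with 1 tested gene between them. Mmp8 was the 1 called marker of 13 tested neutrophil markers, a list with 2 members lower at an unadjusted p under 0.05, a median of -0.396 and a summed level of 384.2 and 421 CPM in KO libraries, against 552.2 and 617.1 CPM in wild-type libraries. The part of neutrophils in the Mmp8 result was not tested. Clec4d lost its call only without KO replicate 1 (0.0884), Mmp8 and Mmp12 without either KO library (0.0685 to 0.111), and Clec7a in all 4 fits (0.114 to 0.45).

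Further lower genes of this kind were named after their values were seen, except those in a list. Creg1, a secreted glycoprotein of lysosomes, was the most abundant called gene, with 541.7 and 583.2 CPM in KO libraries, against 1539 and 1134 CPM in wild-type libraries (log2 fold change -1.25 ± 0.24, adjusted p = 0.0418). Mfge8, the bridging protein that marks dying cells for uptake, had 6.82 and 4.88 CPM in KO libraries, against 20.5 and 17.2 CPM in wild-type libraries (-1.71 ± 0.27, adjusted p = 0.0133). It was the 1 called gene of 13 scavenger and efferocytosis genes. The scavenger receptor Cd36 had 484.1 and 447.4 CPM in KO libraries, against 899.9 and 1460 CPM in wild-type libraries, and was not called (-1.34 ± 0.28, adjusted p = 0.0565). Fabp4, a fatty acid carrier of macrophages, fell with 32.5 and 35.7 CPM in KO libraries, against 89.3 and 66.9 CPM in wild-type libraries (-1.19 ± 0.23, adjusted p = 0.0392). Its relative Fabp5 was not called (-1.98 ± 0.43, adjusted p = 0.0687): the KO libraries had 252.8 and 308.5 CPM, and in wild type replicate 1 had 1690 CPM and replicate 2 only 530.8 CPM. In each of these called genes both KO libraries lay below both wild-type libraries, as in every gene called lower. Also lower were the endothelin receptor Ednrb (-3.04 ± 0.46, adjusted p = 0.0117), the protein C receptor Procr (-2.16 ± 0.41, adjusted p = 0.0346), the carnitine and ergothioneine transporter Slc22a4 (-2.05 ± 0.35, adjusted p = 0.0196), the cytoskeletal protein Pdlim4 (-2.20 ± 0.32, adjusted p = 0.00921), Ninj1, which breaks the plasma membrane in lytic death (-1.58 ± 0.27, adjusted p = 0.0196) and the growth arrest gene Gadd45a (-1.60 ± 0.25, adjusted p = 0.0117). Creg1, Slc22a4, Ninj1 and Gadd45a were called in none of the 4 fits without 1 untreated library (0.0506 to 0.412). The genes Mfge8, Fabp4 and Procr were called only without wild-type replicate 2, and Ednrb only without wild-type replicate 1. Pdlim4 lost its call only without KO replicate 2 (0.12).

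Several called genes encode extracellular matrix proteins or their partners, for which no list was used apart from the stromal markers. Sparc, a collagen-binding matrix protein, had 15.8 and 24.6 CPM in KO libraries, against 56.5 and 57.9 CPM in wild-type libraries (log2 fold change -1.49 ± 0.29, adjusted p = 0.0411). Col1a2, a chain of type I collagen, had 22.1 and 27.2 CPM in KO libraries, against 47.0 and 76.9 CPM in wild-type libraries (-1.33 ± 0.27, adjusted p = 0.05). Ccn2, a matricellular growth factor once named CTGF, had 10 and 22 counts in KO libraries, against 186 and 143 counts in wild-type libraries (-2.58 ± 0.37, adjusted p = 0.00857). The groups did not overlap in these genes, as in every called gene, and Col1a2 of wild-type replicate 1 was nearer to KO than replicate 2. Named after their values were seen, the collagen chain Col5a2 (-2.26 ± 0.35, adjusted p = 0.013), the BMP antagonist Grem1 (-2.07 ± 0.34, adjusted p = 0.0154), the actin-binding Cald1 (-1.47 ± 0.27, adjusted p = 0.0293), the junction protein Cgnl1 (-1.41 ± 0.23, adjusted p = 0.0133) and the protease inhibitors Timp1 (-1.73 ± 0.35, adjusted p = 0.05) and Timp3 (-1.35 ± 0.27, adjusted p = 0.05) were also lower. Each of these 9 genes lost its call in at least 3 of the 4 fits without 1 untreated library, with adjusted p-values up to 0.442.

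Markers of stromal cells and fibroblasts moved with these genes. Of 15 markers 12 were tested, all 12 had a negative log2 fold change with a median of -1.41, 9 were lower at an unadjusted p under 0.05 (7.3% of all genes), and 2, Sparc and Col1a2, were called. The summed level of the 15 markers was 74.0 and 80.4 CPM in KO libraries, against 172.8 and 212.4 CPM in wild-type libraries. Of the defining markers, Lum had no count in any untreated library, Thy1 had 0 and 0 counts in KO libraries, against 2 and 3 counts in wild-type libraries, and Pdgfra had 0 and 4 counts in KO libraries, against 18 and 31 counts in wild-type libraries. Decorin (Dcn) was the highest after Sparc and Col1a2, with 14.9 and 9.88 CPM in KO libraries, against 21.4 and 32.1 CPM in wild-type libraries. In bulk RNA fewer cells of a type and less RNA per cell cannot be told apart, and the part of stromal cells in the matrix result was not tested. Other marker sums were closer between genotypes. Monocyte and progenitor markers, mostly Cd93 and Ccr2, summed to 2164 and 2131 CPM in KO libraries, against 1506 and 1728 CPM in wild-type libraries. Of 9 tested members 5 had a negative log2 fold change, with a median of -0.025. Dendritic cell markers, nearly all of them Bst2, summed to 226.6 and 217.5 CPM in KO libraries, against 195.4 and 181.2 CPM in wild-type libraries. Of 5 tested members 4 had a negative log2 fold change, with a median of -0.607. Erythroid and megakaryocyte markers, nearly all of them Pf4, summed to 233.1 and 282.1 CPM in KO libraries, against 209.2 and 203.9 CPM in wild-type libraries. Lymphocyte markers summed to at most 12.5 CPM and mast cell and basophil markers to at most 5.86 CPM in any untreated library. In these last 5 lists 0 members were called by edgeR or DESeq2, and the members with an unadjusted p under 0.05 were 2 higher monocyte and progenitor markers and 1 lower lymphocyte marker.

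**Figure D3:**
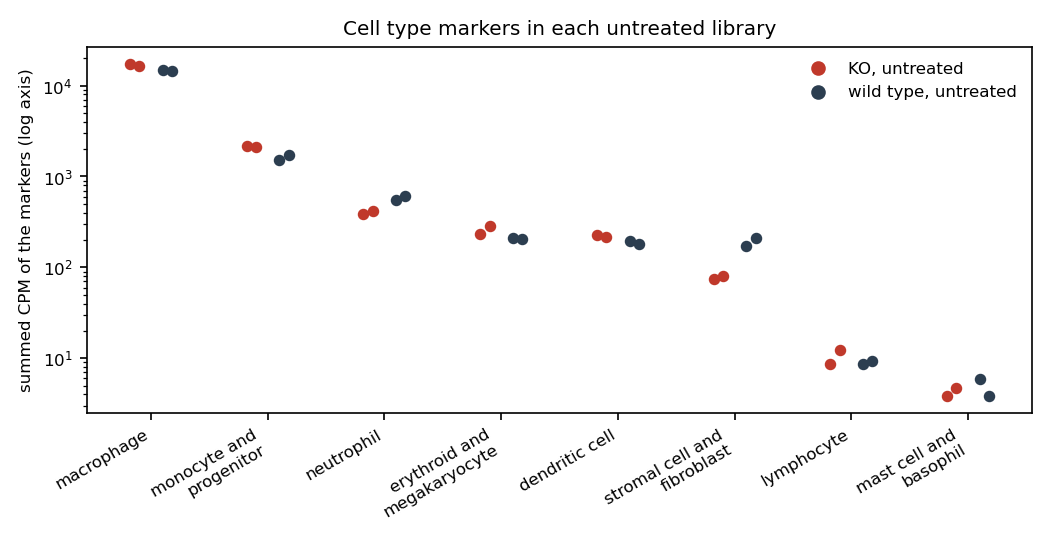
Summed CPM of the markers of 8 cell types in each untreated library, on a log axis, 1 point a library, with KO left of wild type. Stromal markers sum to 74.0 and 80.4 CPM in KO and to 172.8 and 212.4 CPM in wild type, while macrophage markers sum to 14350 CPM or more in every library.

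A few genes were close to silent in one genotype. Npy (chr6:49822710-49829507), the neuropeptide Y precursor, had 7 and 0 counts in KO libraries, against 2638 and 2884 counts in wild-type libraries (log2 fold change -8.71 ± 0.85, adjusted p = 3.64e-04). Ifi208 (chr1:173673675-173698395), a member of the interferon-inducible PYHIN family, had 18 and 9 counts in KO libraries, against 602 and 1381 counts in wild-type libraries (-5.22 ± 0.44, adjusted p = 2.31e-04). Of its 11 tested relatives 0 were called by edgeR or DESeq2, where edgeR called 0.605% of all genes. At an unadjusted p under 0.05 there was 1, beside 7.3% of all genes lower and 3.34% higher. Log2 fold changes of these relatives ran from -0.667 to 0.333. PYHIN genes are close in sequence, and how reads matching several of them were counted is not given by the sources used here. Gm16867 (chr14:69363504-69503362), a predicted gene, had 0 and 0 counts in KO libraries, against 247 and 325 counts in wild-type libraries, at least 105.8-fold lower with 3 counts over the KO group as the limit (adjusted p = 3.64e-04). Gm16867 lies in a duplicated region beside copies of Entpd4, and its reads may be shared with near-identical copies. Prm1, a sperm chromatin protein gene, ran the other way, with 57 and 91 counts in KO libraries, against 0 and 6 counts in wild-type libraries (5.42 ± 0.68, adjusted p = 0.00307). All 4 of these genes kept their call in every fit without 1 untreated library, and all 4 differed in the same direction between the genotypes in DI-treated cells, which are separate libraries. Gm47283 (-1.70 ± 0.30, adjusted p = 0.0212) is annotated on the Y chromosome, whose genes Ddx3y, Eif2s3y, Uty and Kdm5d had 0 to 2 counts, and belongs to a multi-copy region, so its assignment is uncertain.

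Genes known to differ between C57BL/6 substrains were measured as a check of genetic background, since 2 colonies under 1 strain name can carry different alleles. Of 6 such genes 4 were tested and 1 was called. Wdfy1, an endosomal adaptor, was higher, with 168.1 and 117.7 CPM in KO libraries, against 35.9 and 55.1 CPM in wild-type libraries (log2 fold change 1.65 ± 0.28, adjusted p = 0.0176), and lost its call without KO replicate 1 (0.23) or wild-type replicate 1 (0.125). Nnt, the mitochondrial transhydrogenase that is disrupted in the 6J substrain, had 13.5 and 14.98 CPM in KO libraries, against 13.2 and 11.7 CPM in wild-type libraries (0.20 ± 0.24, adjusted p = 0.848). Counts per gene from reads near 3′ ends cannot show which Nnt allele a library carries. Ide (-0.89 ± 0.22, adjusted p = 0.107) and Cyfip2 (-0.50 ± 0.24, adjusted p = 0.483) were not called, and Entpd4 and Crb1 had no count in any untreated library. Gm16867, silent in KO as given above, lies beside copies of Entpd4. How reads shared by near-identical copies were counted is not given, so the lack of counts does not show that Entpd4 was silent. Some called genes lay within 500000 bases of each other. How many such pairs would be found among all genes tested was not counted. With no tested gene between them, Npy and Mpp6 were 280734 bases apart on chromosome 6, and Slc22a4 and Pdlim4 26838 bases apart on chromosome 11. Slc40a1 and Col5a2 were 404786 bases apart on chromosome 1 with 2 tested genes between them that were not called, and B430306N03Rik and A530064D06Rik 148866 bases apart on chromosome 17 with 4 such genes between them. The part of linked alleles or of mouse colony in these results was not tested, and genotype and colony of origin cannot be told apart here.

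The 9 higher genes shared no list. Fgl2, a prothrombinase and secreted immune regulator, was the most abundant of them, with 671.7 and 610.8 CPM in KO libraries, against 249.6 and 252.7 CPM in wild-type libraries (log2 fold change 1.35 ± 0.23, adjusted p = 0.0174). Fcrls, an Fc receptor-like protein of resident macrophages, had 171.6 and 166.3 CPM in KO libraries, against 47.5 and 56.2 CPM in wild-type libraries (1.70 ± 0.27, adjusted p = 0.0133). Fpr2, the receptor for formyl peptides and lipid mediators, had 113.2 and 103.8 CPM in KO libraries, against 44.5 and 54.0 CPM in wild-type libraries (1.14 ± 0.22, adjusted p = 0.0418). Replicates of these 3 genes agreed closely. Their groups did not overlap, which the rule that chose them required. Rnase4, a secreted ribonuclease, had 38.8 and 44.8 CPM in KO libraries, against 16.4 and 14.8 CPM in wild-type libraries (1.42 ± 0.25, adjusted p = 0.0196). Tmem161b, a membrane protein, had 48.5 and 50.7 CPM in KO libraries, against 11.7 and 19.3 CPM in wild-type libraries (1.67 ± 0.26, adjusted p = 0.0117). Pou5f2 had 66 and 115 counts in KO libraries, against 45 and 33 counts in wild-type libraries (2.01 ± 0.33, adjusted p = 0.0163). Pou5f2 and Tmem161b lie on chromosome 13 at 78024902 and 84222296. The lower genes Ninj1, Arsk and Iqgap2 lie on it at 49187485, 76060422 and 95627177. Chromosome 13 held 5 called genes of 431 tested, and chromosome 6 held 8 of 512. Cbr2, a lung-type carbonyl reductase, was higher at a low level, with 45 and 75 counts in KO libraries, against 14 and 23 counts in wild-type libraries (2.54 ± 0.48, adjusted p = 0.0346). Apart from Prm1, no higher gene kept its call in more than 2 of the 4 fits without 1 untreated library.

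None of the 28 tested genes on the inflammatory list was called at rest by edgeR. Those with a small unadjusted p were mostly higher in KO. Called genes outside that list, such as Tnfaip2, Clec4d and Clec7a (lower) and Fpr2 (higher), are given above. The series title names IκBζ, whose gene Nfkbiz had 165.5 and 158.1 CPM in KO libraries, against 73.9 and 84.3 CPM in wild-type libraries. Both KO libraries lay above both wild-type libraries, but the difference missed the threshold (log2 fold change 1.03 ± 0.23, adjusted p = 0.0715). Cd14, the lipopolysaccharide co-receptor, had 223.8 and 202.9 CPM in KO libraries, against 107 and 93.7 CPM in wild-type libraries, and just missed it (1.09 ± 0.22, adjusted p = 0.0514). Of 28 tested inflammatory genes 0 were called in either direction by edgeR, with 1 lower and 5 higher at an unadjusted p under 0.05 (7.3% and 3.34% of all genes), while DESeq2 called Nfkbiz higher and Saa3 lower. Saa3, an acute-phase protein, had a log2 fold change of -1.10 ± 0.23 (adjusted p = 0.0682). Of 17 genes for Toll-like receptors and adaptors, 0 were lower and 4 higher at an unadjusted p under 0.05. DESeq2 called 1 of them, Cd14, higher, and Tlr2 lay at 1.03 ± 0.33 (adjusted p = 0.238). Of 34 interferon-stimulated genes, 2 were lower and 2 higher at an unadjusted p under 0.05. Among them Cxcl10 lay at 0.87 ± 0.21 (adjusted p = 0.102) and Oas2 at 0.72 ± 0.25 (adjusted p = 0.297). The NADPH oxidase genes had a median of 0.308 with none negative among 7, and Nox1 at 1.54 ± 0.39 came nearest to the threshold (adjusted p = 0.113).

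Other programmes are given by their values. Of 41 gene lists, 29 had no member called by edgeR. Of the 484 distinct genes tested in them, 44 were lower and 31 higher at an unadjusted p under 0.05 (7.3% and 3.34% of all genes), and DESeq2 called 10 lower and 5 higher. Antigen presentation by MHC class II had a median of -0.76 over 7 genes, 3 of them lower and 0 higher at an unadjusted p under 0.05, with H2-Ab1 at -0.94 ± 0.23 and H2-Aa at -0.87 ± 0.23 on the log2 scale (adjusted p = 0.106 and 0.134). Of 17 tested genes listed as p53 targets, 1 was lower and 5 were higher at an unadjusted p under 0.05. Their median was 0.40, and DESeq2 called 1 higher. The growth arrest gene Gadd45a, called lower (-1.60 ± 0.25, adjusted p = 0.0117), is not in that list. Stress responses that do not run through NRF2 stayed below the threshold, with the integrated stress response gene Ddit3 at -1.03 ± 0.25 (adjusted p = 0.107), the chaperone Dnaja1 at -1.13 ± 0.36 (0.235) and the endoplasmic reticulum gene Herpud1 at 1.11 ± 0.25 (0.0745). In sterol efflux Apoe lay at -0.69 ± 0.21 (0.2) and Mylip at -0.83 ± 0.22 (0.137). DNA replication genes had a median of -0.069, with Pcna at -0.89 ± 0.22 (0.107) and Ccne2 at -0.99 ± 0.29 (0.178). None of these differences passed edgeR's threshold. The list of 27 lysosome and autophagy genes was led by Gpnmb at -0.81 ± 0.22 (0.138). The lysosomal genes Creg1 (-1.25, adjusted p = 0.0418) and Arsk (-2.36, adjusted p = 0.0134) are not in that list and were called lower. In glycolysis the glucose transporter Slc2a1 lay at -0.63 ± 0.22 (0.294) and Hk1 at -0.61 ± 0.23 (0.354), and in alternative activation Arg1 lay at -1.75 ± 0.38 (0.0683) and Mgl2 at 2.18 ± 0.63 (0.176). Partners of NRF2 were also not called, among them Btrc at 0.79 ± 0.28 (0.321) and Maff at -0.73 ± 0.34 (0.479). In some listed genes 1 wild-type library stood apart: mt-Nd6 had 11.9 and 21.6 CPM in KO libraries, against 204 and 13.97 CPM in wild-type libraries, and H2-T23 had 8.05 and 22.7 CPM in KO libraries, against 162.3 and 15.6 CPM in wild-type libraries. Without wild-type replicate 1 their log2 fold changes were 0.277 for mt-Nd6 and 0.007 for H2-T23, against -2.68 and -2.50 with it. A value that misses the threshold with 2 libraries a group does not show that a gene was unchanged. The median standard error was 0.277, and no change under 1.03 on the log2 scale was called in any gene.

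The same genotype difference was then read in the 4 DI-treated libraries, which share no library with the untreated comparison. There 1079 genes (9.74%) were lower and 1266 (11.4%) higher in KO, so the number of differences was far greater under the electrophile. Of the 58 genes lower in untreated KO cells, 50 had a negative log2 fold change with DI and 47 (81%) were called lower with DI, which is 4.36% of all genes called lower there. All 9 higher genes had a positive log2 fold change with DI and 8 were called higher. The interaction test asks whether the genotype difference itself differs between treatments, and it was called for 836 genes (7.55%). For 27 of the 58 lower genes the interaction was called, in 19 because the difference was farther from 0 with DI and in 8 because its sign was opposite. It was called for 0 of the 9 higher genes by edgeR or DESeq2, with 1 at an unadjusted p under 0.05.

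Of the 19 lower genes with a difference farther from 0 with DI, 7 were NRF2 targets. Gclm differed by a log2 fold change of -5.54 with DI beside -1.84 at rest, Gclc by -5.01 beside -1.42, and Slc7a11 by -5.06 beside -2.18, each with a called interaction (adjusted p = 2.2e-04, 2.92e-04 and 0.012). Of the 35 tested target genes 33 were lower in KO with DI, beside 10 at rest, with a median of -3.50. Targets that were level between genotypes at rest could differ widely with DI, such as Ptgr1, which inactivates lipid aldehydes and eicosanoids, with -4.65 beside -0.16 (interaction adjusted p = 2.2e-04). For other called genes the interaction missed the threshold, which does not show that the differences were equal. Me1 (-3.16 beside -3.40), Txnrd1 (-2.25 beside -2.65) and Tnfaip2 (-2.58 beside -2.71) had adjusted interaction p-values of 0.622 to 0.877. The iron exporter Slc40a1 (-4.36 beside -3.72, adjusted p = 0.363) and the matrix genes Sparc (-1.91 beside -1.49, adjusted p = 0.529) and Col1a2 (-1.19 beside -1.33, adjusted p = 0.845) missed it too. So did Nqo1 (adjusted p = 0.648), whose fitted value at rest rests on no count in KO and allows no comparison of sizes. Stromal markers summed to 70.1 and 82.9 CPM in KO libraries with DI, against 209.1 and 226 CPM in wild-type libraries with DI.

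In 8 lower genes the sign was opposite with DI. Vti1b, a SNARE of late endosomes, Vps39, a subunit of the HOPS tethering complex, Sec63 and Ccdc47 of the endoplasmic reticulum, Anp32a, the general transcription factor Gtf2a1 and the cleavage factor Cstf2 were lower in untreated KO cells and called higher in KO cells with DI. Rhov turned as well, to a value that was not called (0.87, adjusted p = 0.0665). Vti1b had 71.2 and 60.0 CPM in KO libraries, against 185.7 and 221.6 CPM in wild-type libraries at rest, and its log2 fold change was -1.64 ± 0.26 at rest (adjusted p = 0.0133) and 1.43 with DI (adjusted p = 0.0025). Anp32a lay at -1.44 ± 0.28 at rest (adjusted p = 0.0393) and at 1.95 with DI (adjusted p = 5.66e-04).

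**Figure D4:**
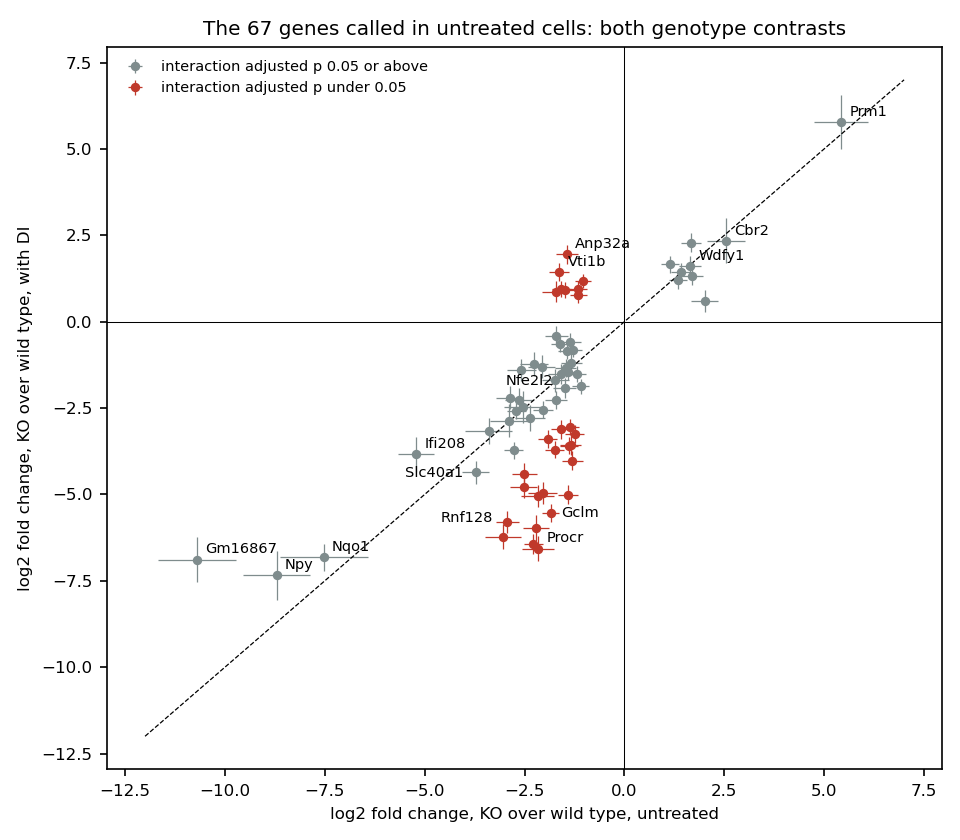
Log2 fold change of KO over wild type with DI (vertical axis) against the same in untreated cells (horizontal axis) for the 67 called genes, 1 point a gene with bars of 1 standard error, red where the interaction was called, and a dashed line where both are equal. The red points below the line are the 19 lower genes whose difference is farther from 0 with DI, and the 8 above 0 are those whose sign is opposite.

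Runs of A in the coding sequence moved with part of these values. The primer of this protocol ends in T bases and can also anneal inside a transcript that is rich in A. Genes were sorted by the most A found in a stretch of 15 coding bases. The median log2 fold change at rest was 0.083 for genes with 6 or fewer, 0.076 with 7, 0.077 with 8 and 0.046 with 9. It was -0.022 with 10, -0.111 with 11, -0.108 with 12 and -0.092 with 13 or more. At least 11 such A were found in 29.8% of tested genes, in 23 of the 58 lower genes (39.7%) and in 6 of the 8 lower genes whose sign turned with DI. With this trend removed by an offset, an alternative chosen after the data were seen, 53 of the 67 calls remained. The 14 lost calls had adjusted p-values of 0.0506 to 0.0798, and their log2 fold changes moved by at most 0.137, 11 towards 0 and 3, those of Timp1, Srxn1 and Zfp503, away from it. Among the 14 were Anp32a (adjusted p = 0.0734), Gtf2a1 (0.0783), Ccdc47 (0.0798), Rhov (0.0783), Clec7a (0.0742), Fabp4 (0.077), Cald1 (0.0537) and Mpp6 (0.0519), and, of the genes described above, Col1a2 (0.0665), Timp1 (0.0506), Srxn1 (0.0519), Gsr (0.0506) and Fpr2 (0.0586). Vti1b (0.0155), Vps39 (0.0118), Sec63 (0.0224) and Cstf2 (0.0218) kept theirs.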

How the data were processed

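The deposited values are raw read counts, 1 column a library and 1 row an Ensembl gene, and were not normalized. The submitters' processing notes name STAR, HTSeq, DESeq2 and mm10, and neither versions nor the annotation release are given in the sources used here. Libraries were strand-specific and made from poly(A) RNA, per the labels' protocols. Without molecular identifiers, repeated reads of a molecule are counted again, so limits from counts cover counting error only.

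The table holds 22165 genes, of which 21822 had coordinates and a symbol in GENCODE M21 (GRCm38, which is mm10) by identifier. Genes were filtered with edgeR's filterByExpr (minimum count 10) with TMM scaling. A single model of edgeR 4.0.16 (R 4.3.3) held all 8 libraries and a mean for each group, which pools the spread over groups. Its robust quasi-likelihood F-test gave the p-values, adjusted by Benjamini-Hochberg (threshold 0.05). CPM use the TMM-scaled totals. Standard errors come from the fitted change and its F value. Alternatives were DESeq2 1.42.0, other scalings and filters, only the untreated libraries, the replicate number as a block, fits without 1 library and an offset for A-rich coding sequence. Replicates differed by more than counting error (chi-square per degree of freedom 12.8 in KO and 37.9 in wild type). The steps were tested on simulated data.

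Named genes were Nfe2l2, the 12 largest increases and the 12 largest decreases among called genes with at least 10 CPM in the higher group, non-overlapping libraries and a full symbol, every called list member, 2 members per list with the smallest p, all NRF2 targets and the substrain genes. Some genes that this rule takes are not reported here. Called genes named beyond this rule, such as Clec4d, Clec7a, Mmp12, Prm1 and Cbr2, were chosen after their values were seen. Members and lists were chosen with earlier results of these data known. Promoter windows are from RefSeq, matched by symbol.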

Additional observations from a re-analysis of the deposited data

Results flagged for a closer look

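For 50 of the genes named in the text or called in untreated cells, the genotype difference itself differed between treatments by the interaction test of edgeR (adjusted p under 0.05, 7.55% of all genes tested). The values are the log2 fold change of KO over wild type with DI minus the same in untreated cells, so a negative value means that KO lay lower against wild type with DI than at rest. No explanation was tested.

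Among NRF2 targets called lower at rest these were Gclm (-3.69), Gclc (-3.58), Slc7a11 (-2.88), Srxn1 (-2.72), Gstm1 (-2.26), Gsr (-2.21) and Esd (-2.19). Among targets not called at rest they were Mgst2 (-5.13), Ptgr1 (-4.49), Cbr3 (-3.99), Cat (-3.91), Prdx1 (-3.64), Mgst1 (-3.15), Taldo1 (-3.04), Ephx1 (-2.96), Blvrb (-2.69), Pgd (-2.68), Prdx6 (-2.54), G6pdx (-2.30), Akr1b8 (-1.91), Ftl1 (-1.72), Txn1 (-1.67) and Fth1 (-1.23). Among other genes lower at rest, the difference was farther below 0 with DI for Procr (-4.41), A530064D06Rik (-4.16), Pdlim4 (-3.77), Ednrb (-3.18), Slc22a4 (-2.92), Rnf128 (-2.85), Creg1 (-2.004), Mmp12 (-1.95), Plpp3 (-1.91), B430306N03Rik (-1.70), Ninj1 (-1.54) and Mmp8 (-1.47). It turned from below 0 to above 0 for Anp32a (3.38), Vti1b (3.07), Rhov (2.59), Vps39 (2.52), Sec63 (2.39), Ccdc47 (2.20), Gtf2a1 (2.12) and Cstf2 (1.91). Genes named from other lists without a call at rest were Slc2a1 (-1.48), Gpnmb (-1.15), Nfkbiz (1.43), Hspa4 (1.71), Ccne2 (2.13), Dnaja1 (2.84) and Ddit3 (2.85).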

How the results depend on the processing

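No called gene changed direction in any alternative run. Of 155 genes named or listed, 8 that were not called changed sign without 1 untreated library, among them mt-Nd6 and H2-T23 as given above, Ptgr1 (-0.161, and 0.054 without wild-type replicate 1) and Mgst2 (0.421, and -0.092 without KO replicate 1). The 67 calls became 59 with RLE factors, 69 with library totals only, 49 at a mean of at least 5 CPM, 71 with only the 4 untreated libraries, 60 without robust estimation and 57 with the A-rich trend removed. They became 397 without a filter on low counts and 179 with DESeq2, and both kept all 67. Higher calls were 9, and 14 with library totals only, 72 without a filter, 35 with DESeq2 and 14 with only the untreated libraries. Lower calls were 58, and 325 without a filter and 144 with DESeq2. NRF2 targets called lower were 10, and 18 without a filter, 5 at 5 CPM (which removes the low targets) and 17 with DESeq2. Stromal markers called lower were 2, and 6 without a filter, 0 at 5 CPM, and 1 with RLE factors, with only the untreated libraries, without robust estimation or with the A-rich trend removed. The cause of these shifts was not tested, apart from the genes removed at 5 CPM.

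Leaving out 1 of the 8 libraries at a time gave 11 to 81 calls, 1 to 16 higher and 10 to 65 lower. The count of named genes called was 33, and 7 to 31 in these fits, NRF2 targets 0 to 11, stromal markers 0 to 1, and the DI comparison 1208 to 2222 calls beside 2345. A fit without an untreated library leaves 1 in its group, which is then assumed to vary like the others.

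The replicate number as a block (replicate block) changed the 67 calls to 67, of which 61 were the same genes, and the stromal count to 1. With only the 4 untreated libraries, the block left 18 calls, 2 higher and 16 lower, with 12 named genes, 2 NRF2 targets and 0 stromal markers. Deviations of same-numbered untreated libraries, KO with wild type, correlated with r of 0.021 across genes. With 2 libraries a group that value cannot settle whether the numbers pair libraries, and the labels do not say what they mean.

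With 2 libraries a group and shallower KO libraries, genes under a few CPM in wild type rest on few KO counts, and changes under 1.03 on the log2 scale were not called.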

Other observations

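Some lower genes were not described with their levels above. Arsk, a lysosomal sulfatase, had 9.80 and 9.88 CPM in KO libraries, against 55.0 and 46.1 CPM in wild-type libraries (log2 fold change -2.36 ± 0.38, adjusted p = 0.0134). The scaffold protein Iqgap2 had 76.6 and 68.1 CPM in KO libraries, against 197 and 193.6 CPM in wild-type libraries (-1.43 ± 0.23, adjusted p = 0.0134). The zinc finger gene Zfp503 had 21 and 45 counts in KO libraries, against 108 and 255 counts in wild-type libraries (-1.58 ± 0.32, adjusted p = 0.05, just under the threshold before rounding). The unnamed transcripts A530064D06Rik (-2.28 ± 0.24, adjusted p = 7.32e-04) and B430306N03Rik (-1.36 ± 0.22, adjusted p = 0.0134) fell together on chromosome 17. A530064D06Rik kept its call in all 4 fits without 1 untreated library, Arsk only without wild-type replicate 2 and Zfp503 only without wild-type replicate 1, and the others in none.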
